A study of Homo sapiens with 6 samples.

Results

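The genes described here are the WNT ligands, the receptors that bind them, their inhibitors and the intracellular genes that report or carry the canonical signal, without *WNT5A*, *WNT5B* and *WNT11*. The 58 listed genes were matched by symbol alone to the 20347 symbols in the table of normalized read counts, and all 58 were found. The list itself was chosen with earlier results of these data known. RNA-seq was performed in PaTu8988t, an established human cell line of pancreatic ductal adenocarcinoma (PDAC), to ask which genes respond to the loss of SAMD1, a chromatin repressor that binds unmethylated CpG islands. The 3 *SAMD1* KO libraries came from 3 clonally independent clones, made by transfection of the Lenti-CRISPR V2 plasmid with guides against *SAMD1*. The 3 Control libraries came from cells that carried the same vector with an unspecific guide, and whether these were separate clones or cultures is not given in the sources used here. Cells of both groups had been selected with puromycin and carried no other labelled allele or treatment. Each *SAMD1* KO value therefore describes 1 clone, and properties of a clone cannot be told apart from replicate error.

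WNT proteins are lipid-modified secreted ligands that bind Frizzled receptors together with LRP5 or LRP6. In the canonical branch, binding inhibits a destruction complex built on AXIN and APC, so that β-catenin accumulates and acts with TCF/LEF factors on target genes. Several targets, among them *AXIN2*, *NKD1*, *NOTUM*, *ZNRF3* and *RNF43*, encode inhibitors of the pathway itself, and in the pancreas the pathway takes part in organ development and, in some tumors, in growth that depends on WNT ligand.

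*SAMD1* itself had normalized counts of 2231, 2382 and 2299 in Control and 874, 1082 and 825 in the *SAMD1* KO clones (log2 fold change -1.32, SE 0.10, limma adjusted p = 0.000724). A normalized count is the read count of a gene divided by a size factor of its library. The libraries held from 35589477 to 45172216 reads on genes. Of 8 epithelial markers, 7 averaged at least 10 normalized counts, with *KRT19* without a read and *CDH1* low, at means of 38.3 in Control and 41.5 in the clones. The summed epithelial markers ran from 62990 to 66190 in Control and from 67950 to 108900 in the clones, and nearly all of this was *KRT8* and *KRT18*. By the rule given below, *KRT18* (mean 29567 in Control and 43002 in the clones) and *KRT7* (30.2 and 84.2) were called higher, and *KRT8*, *EPCAM*, *CDH1*, *MUC1* and *CLDN4* were not called. The same number of markers reached the minimum for fibroblasts (3 of 7, with *DCN* and *LUM* without reads) as for endothelium (3 of 4), and for immune cells it was 1 of 5 (*CD68*). The summed fibroblast markers ran from 571 to 582 in Control and from 477 to 811 in the clones, the endothelial markers from 80.1 to 85.9 and from 35.6 to 85.5, and the immune markers from 359 to 383 and from 252 to 334. Their part in the results below was not tested. In bulk RNA, fewer cells that express a gene and less RNA per cell cannot be told apart.

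Of the 58 WNT genes, 35 reached an average of 10 normalized counts across the 6 libraries, and these were tested among 12773 genes. A gene was called changed where its log2 fold change exceeded 0.5 in either direction and its limma p, before adjustment, was under 0.01, the limits that the study used. By this rule 12 WNT genes rose in the *SAMD1* KO clones, 0 fell and 23 were not called. The share called higher was 34.3% of the tested WNT genes, against 5.77% of all tested genes. Of all tested genes, 2.08% were called lower and 7.85% in either direction. The list was chosen with earlier results of these data known, so these shares describe it and are not an independent test. In limma 2 of the tested WNT genes, *WNT4* and *WLS*, lay below 0 with an unadjusted p below 0.05. *WNT4* (log2 fold change -1.99) narrowly missed the p limit, with an unadjusted limma p of 0.0101, and *WLS* missed the fold limit. In edgeR and in DESeq2 on the recovered reads 0 were called lower. The 12 that rose also had adjusted p-values below 0.05, with no further WNT gene below that value in either direction, where 8.32% of all tested genes were higher and 4.7% lower by this rule. The median log2 fold change of the 35 genes was 0.20, and over all tested genes it was -0.0059. All 12 passed the count minimum on their Control values alone, the lowest Control mean among them being 19.8. *DKK2* would also pass on its Control mean of 13.8. It was not tested because its clone mean of 1.76 brought the average of the 6 libraries under 10. For 16 of the 35 genes every clone was above every Control library and for 2 genes every clone was below, which held for 19.2% and 18.6% of all tested genes.

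**Figure D1:**
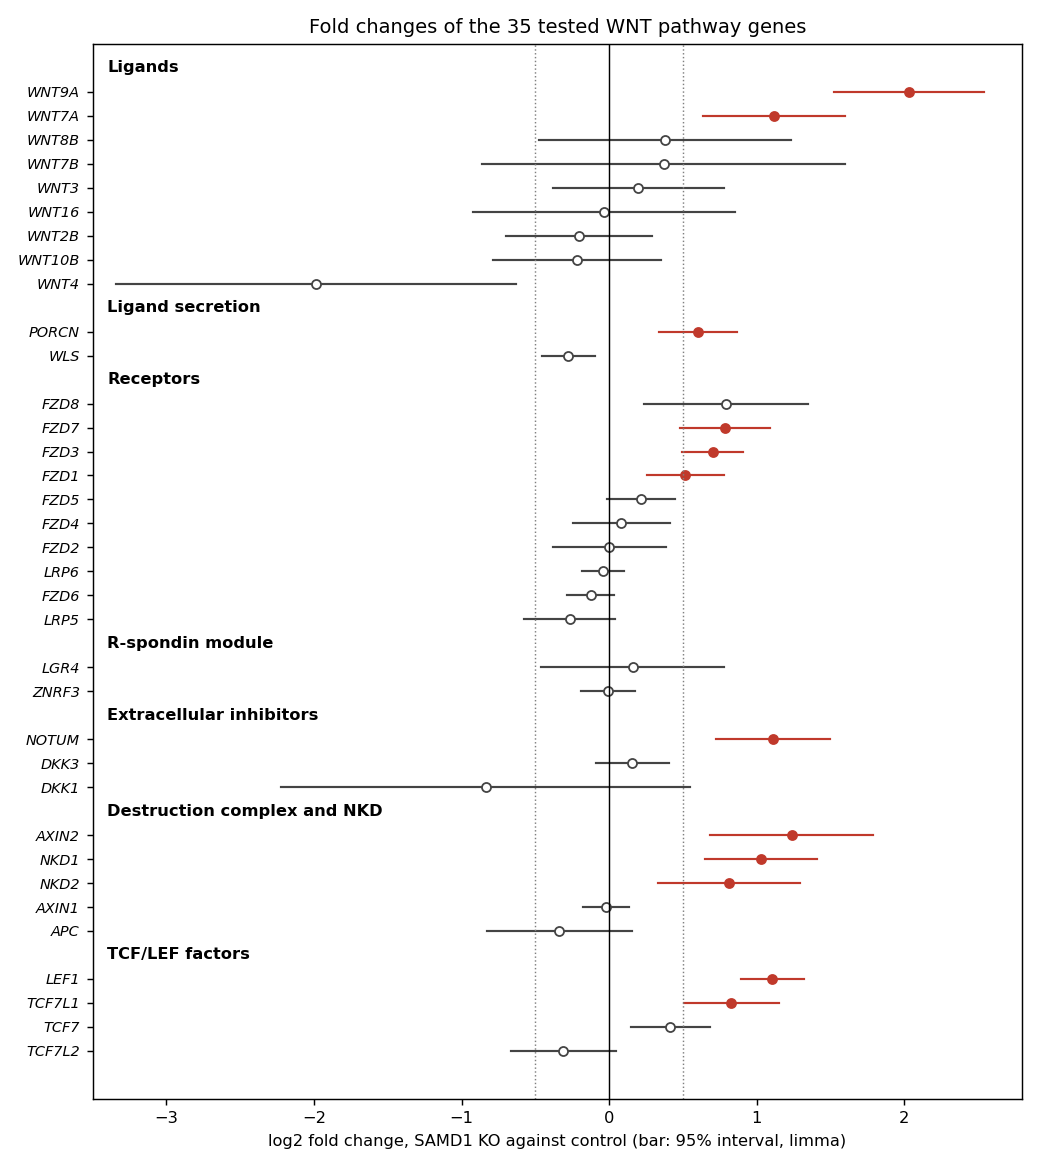
Log2 fold change (clones against Control) of the 35 tested WNT genes, ordered by role, with 95% intervals from limma; filled red points are called genes, and dotted lines mark log2 fold changes of -0.5 and 0.5. The 12 called genes all lie right of the dotted line at 0.5, and *WNT4* has the lowest value, -1.99.

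In the plot of fold changes by role, called genes occurred in 6 of 7 role groups. They numbered 2 of 9 tested ligands, 1 of 2 genes of ligand secretion, 3 of 10 tested receptors, 1 of 3 tested secreted inhibitors, 3 of 5 genes of the destruction complex and intracellular feedback, and 2 of 4 TCF/LEF factors. None of the 2 tested genes of the R-spondin module was called. For 9 of the 23 genes that were not called, *WLS*, *FZD2*, *FZD4*, *FZD5*, *FZD6*, *LRP6*, *ZNRF3*, *DKK3* and *AXIN1*, the 95% interval of the log2 fold change lay wholly within 0.5 of 0.

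Among the ligands, *WNT9A* and *WNT7A* rose. *WNT9A* (GRCh38 chr1:227918656-227947932, minus strand), a ligand known from joint and hematopoietic development, had 18.3, 20.5 and 20.6 normalized counts in Control and 99.9, 88.1 and 67.5 in the clones. Every clone lay above every Control library. Its mean went from 19.8 ± 1.32 to 85.2 ± 16.4 (SD, n = 3), a ratio of 4.3, with a log2 fold change of 2.03 (SE 0.22, limma adjusted p = 0.00203). *WNT7A* (chr3:13816258-13880071, minus strand), a ligand of several epithelia that can signal through β-catenin, had 349, 345 and 359 in Control and 812, 1005 and 543 in the clones. Clone 2 was highest and clone 3 lowest, still above all Control libraries. The mean rose from 351 ± 6.81 to 787 ± 232 (SD, n = 3; log2 fold change 1.12, SE 0.21, limma adjusted p = 0.0146). Per kb of exon *WNT7A* was the most abundant of the listed ligands in both groups, at 77.5 in Control and 174 in the clones. *WNT9A* went from 4.95 to 21.3 on this scale. *WNT5A*, *WNT5B* and *WNT11* are outside the list and were not ranked.

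The bases before the start of both ligand genes are shown because they are next to the transcripts that rose most among the listed ligands. A further reason is that SAMD1 is known for binding GC-rich CpG islands. Each run is the 250 bases 5′ of the RefSeq gene start on GRCh38, read 5′ to 3′ on the gene's strand, with every GCGC in capitals. *WNT9A* is on the minus strand and its window is chr1:227947933-227948182, and *WNT7A* is on the minus strand with the window chr3:13880072-13880321.
WNT9A: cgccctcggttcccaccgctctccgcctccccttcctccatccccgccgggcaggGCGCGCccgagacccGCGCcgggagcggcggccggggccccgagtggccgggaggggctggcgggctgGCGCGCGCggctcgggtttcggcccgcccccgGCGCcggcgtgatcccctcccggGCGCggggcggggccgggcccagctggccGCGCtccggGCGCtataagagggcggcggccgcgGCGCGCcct
WNT7A: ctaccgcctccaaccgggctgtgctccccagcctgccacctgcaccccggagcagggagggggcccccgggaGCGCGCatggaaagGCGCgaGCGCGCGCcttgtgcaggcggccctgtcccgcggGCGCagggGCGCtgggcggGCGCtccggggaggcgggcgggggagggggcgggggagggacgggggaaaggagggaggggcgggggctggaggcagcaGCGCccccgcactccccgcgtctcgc
The *WNT9A* window held 12 GCGC and the *WNT7A* window 10, where overlapping matches were counted and both strands read the same because GCGC is its own reverse complement. GC made up 84.4% and 80.4% of the bases. Over the tested genes with a window the medians were 3 GCGC and 65.2% GC. They were 4 and 68.8% over the tested WNT genes, and 5 and 72% over the called WNT genes. At least 1 GCGC was found in the windows of all 7 called WNT genes that the RefSeq table holds, in 22 of 23 tested WNT genes (95.7%), in 80.9% of the 10259 tested genes with a window and in 52.7% of all 27303 windows. So a GCGC in this window was common among all expressed genes. The letters CTTTGA, the core that TCF/LEF factors recognise, were searched on both strands and occurred in 0 of the 7 called genes, in 1 of the 23 tested WNT genes and in 7.35% of the tested genes. These matches describe the window only, and SAMD1 binding was not analysed here. The RefSeq table used has no window for *FZD3*, *FZD7*, *NOTUM*, *AXIN2* and *NKD1*.

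The other tested ligands were not called. *WNT4*, a ligand of kidney and reproductive tract development, had 29.7, 23.5 and 30.9 in Control and 4.94, 2.59 and 17.1 in the clones, which do not overlap (log2 fold change -1.99, 95% interval from -3.34 to -0.63, limma adjusted p = 0.0646). Clones 1 and 2 were the lowest. Without clone 3 *WNT4* was called, with a log2 fold change of -2.64. *WNT7B*, the closest relative of *WNT7A*, had 30.9, 30.3 and 17.2 in Control and 68.2, 33.7 and 15.3 in the clones. Here clones 1 and 2 were above and clone 3 was below every Control library. *WNT4* and *WNT7B* are named after their values were seen, and so are *FZD8*, *DKK1* and *TCF7* below. *WNT2B*, *WNT3*, *WNT8B*, *WNT10B* and *WNT16* had overlapping groups, with log2 fold changes from -0.22 to 0.38. *WNT1*, *WNT2*, *WNT6* and *WNT10A* had reads but stayed under the minimum, the highest value being 21 reads of *WNT10A* in clone 2. *WNT3A* and *WNT9B* had no reads in any library. A count of 0 allows up to 3 reads, which is from 2.592 to 3.436 normalized counts depending on the library, and this limit covers counting error only.

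**Figure D2:**
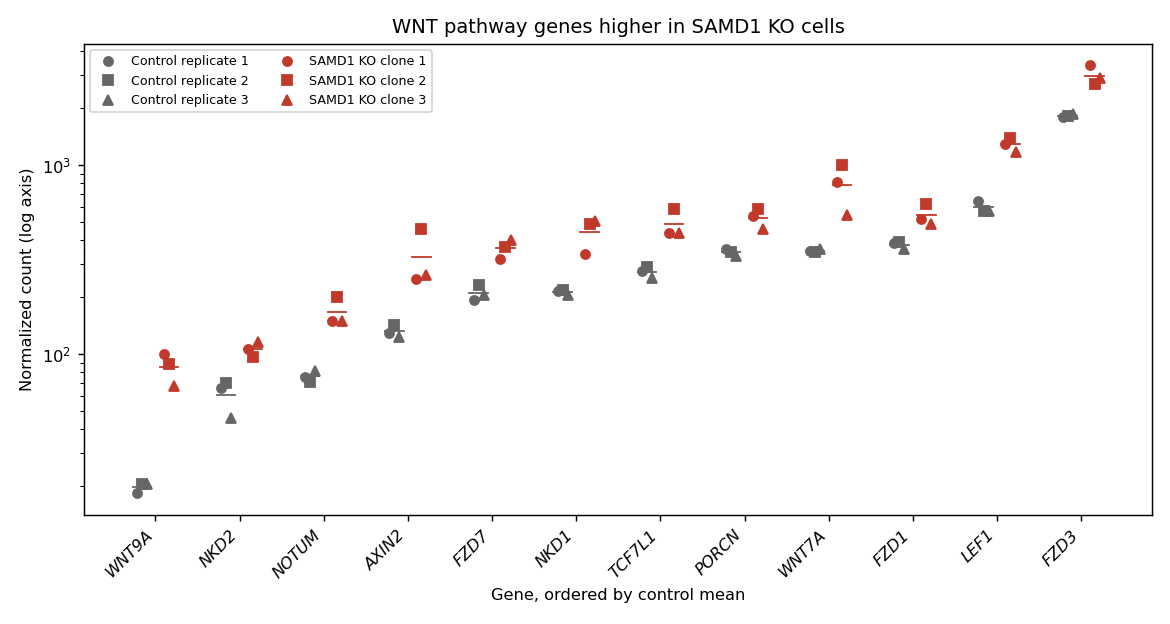
Normalized counts (log axis) of the 12 called WNT genes in each of the 6 libraries, with Control in gray and *SAMD1* KO clones in red, a symbol for each replicate number and lines at the group means. In every gene the 3 clones lie above the 3 Control libraries, and the distance is largest for *WNT9A*, from 19.8 to 85.2 on average.

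Of the genes of ligand secretion, *PORCN* (chrX:48508959-48520814, plus strand) rose. It encodes the acyltransferase that attaches the lipid to WNT proteins, and its normalized counts were 358, 347 and 329 in Control and 537, 584 and 458 in the clones. The groups do not overlap. The mean went from 345 ± 14.8 to 526 ± 63.8 (SD, n = 3; log2 fold change 0.60, SE 0.11, limma adjusted p = 0.0151). Its neighbours on chromosome X moved with it. The median log2 difference from Control over the 40 nearest tested genes was 0.40, 0.43 and 0.41 in clones 1 to 3. With this regional shift subtracted, the log2 fold change of *PORCN* was 0.18, under the fold limit, and the call was lost. *WLS*, which carries lipid-modified WNT proteins to the cell surface, had 2138, 2146 and 2116 in Control and 1603, 1752 and 1937 in the clones. All clones lay below Control, but the log2 fold change of -0.28 (95% interval from -0.46 to -0.10) did not reach the fold limit.

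Among the receptors *FZD3*, *FZD7* and *FZD1* rose. *FZD3*, a Frizzled known from axon guidance and neural development, had 1786, 1816 and 1867 in Control and 3369, 2683 and 2877 in the clones. Clone 1 was the highest and all clones were clear of Control. The mean went from 1823 ± 41.2 to 2977 ± 353 (SD, n = 3; log2 fold change 0.70, SE 0.09, limma adjusted p = 0.00365). *FZD7* (chr2:202033855-202038441, plus strand), a Frizzled of stem and progenitor cells that is also known from gastrointestinal tumors, had 192, 232 and 206 in Control and 319, 368 and 402 in the clones. The lowest clone was above the highest Control library. Its log2 fold change was 0.78 (SE 0.13, limma adjusted p = 0.00963). *FZD1* (chr7:91264433-91271326, plus strand), the receptor closest to *FZD7* in sequence along with *FZD2*, had 387, 391 and 359 in Control and 520.1, 624 and 490.2 in the clones. Its log2 fold change of 0.52 (SE 0.11, limma adjusted p = 0.0268) was just past the fold limit. The call was lost without Control replicate 3 (0.48), without clone 2 (0.41) and with the regional shift removed (0.498), so it rests on a narrow margin.

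*FZD6*, the receptor with the most reads, was not called. Its normalized counts were 9724, 9354 and 9918 in Control and 8265, 8724 and 9636 in the clones (log2 fold change -0.13, 95% interval from -0.28 to 0.03). The groups overlap through clone 3. *FZD8* had 143, 136 and 159 in Control and 173, 279.9 and 334 in the clones, with no overlap and clone 1 nearest to Control. Its log2 fold change of 0.79 (limma adjusted p = 0.0708) missed the p limit. It was called without clone 1 (1.06), with the regional shift removed (0.77), and also in edgeR (0.85) and DESeq2 (0.85) on the recovered reads. *FZD2* had a log2 fold change of 0.00 with an interval from -0.38 to 0.38. The co-receptors *LRP5* and *LRP6* had -0.27 (interval from -0.58 to 0.04) and -0.04 (interval from -0.19 to 0.10), and *FZD4* and *FZD5* had 0.08 and 0.21. *FZD9* had at most 6 reads in a library and *FZD10* had none.

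**Figure D3:**
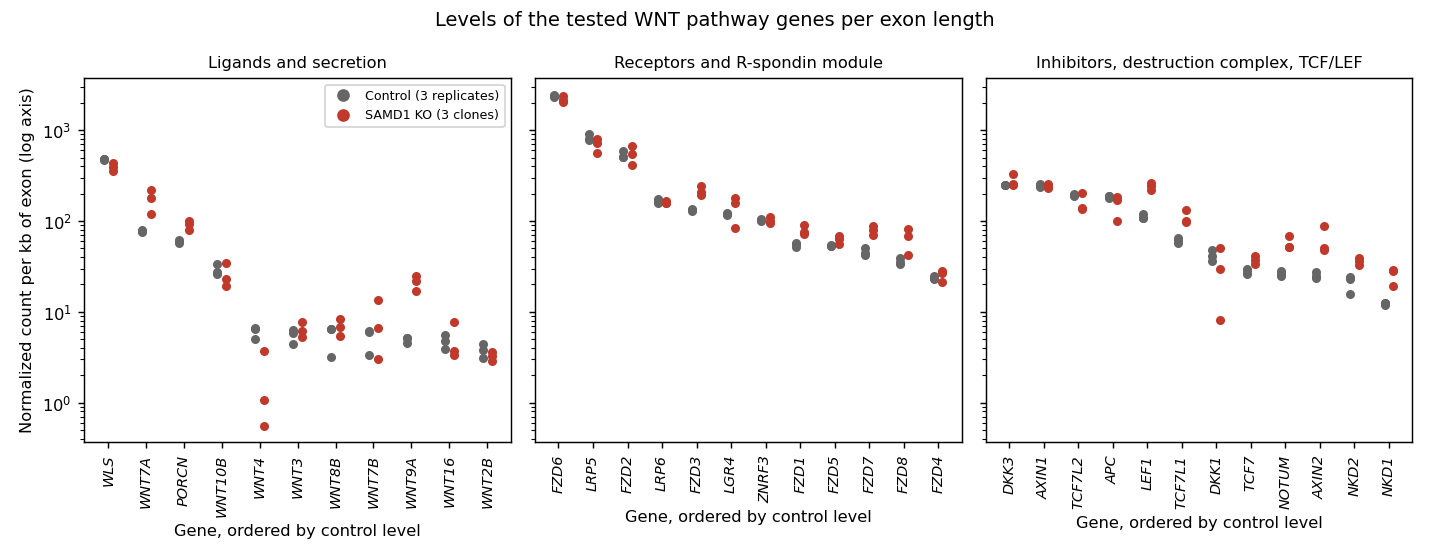
Normalized count per kb of exon (log axis) of the tested WNT genes in 3 panels by role, with Control and *SAMD1* KO libraries as points. *FZD6* is the highest receptor in both groups, at 2378 in Control and 2183 in the clones on average, and of the called receptors *FZD3* has the highest level, at 132 and 216.

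Levels of different genes can be set beside each other only per length, and the plot of levels per kb gives the order of the receptors. In Control the mean normalized counts per kb were 2378 for *FZD6*, 834 for *LRP5*, 534 for *FZD2*, 166 for *LRP6* and 132 for *FZD3*. *FZD1* (55.0), *FZD5* (53.7), *FZD7* (45.8), *FZD8* (36.1) and *FZD4* (23.8) followed. *FZD1* and *FZD5* did not differ beyond the spread of their libraries. In the clones *FZD3* stood at 216 and was above *LRP6* (161), while *FZD6*, *LRP5* and *FZD2* remained the highest receptors. The exon length is the union of all annotated transcripts, so a gene with long unused exons is placed too low.

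The R-spondin module tunes how many Frizzled receptors stay at the surface: R-spondins bind LGR receptors and remove the ubiquitin ligases ZNRF3 and RNF43. Only *LGR4* and *ZNRF3* were abundant enough to test. *LGR4* had 747, 779 and 755 in Control and 526, 1012 and 1148 in the clones. Clone 1 was below and clones 2 and 3 were above all Control libraries. The log2 fold change was 0.16 with an interval from -0.46 to 0.78. Without clone 1 it was 0.50 and called, and the neighbours of *LGR4* were shifted by -0.36 in clone 1. *ZNRF3* had a log2 fold change of -0.01 with an interval from -0.19 to 0.18, which lies within the fold limit. *RNF43*, *LGR5*, *LGR6* and *RSPO4* had from 0 to 10 reads in a library, and *RSPO1* and *RSPO3* had none. *RSPO2* had no reads in Control and 2, 1 and 5 in the clones, so the groups do not overlap (exact permutation p = 0.1, the smallest that 3 against 3 libraries can give), and its level stayed near the limit that a count of 0 allows.

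Among the secreted inhibitors *NOTUM* (chr17:81952507-81961840, minus strand) rose. It encodes a secreted enzyme that takes the lipid off WNT proteins and is a known target of β-catenin. Its normalized counts were 75.5, 71.4 and 81.3 in Control and 150.3, 200.4 and 149 in the clones. Clones 1 and 3 were alike and clone 2 was higher, all above Control. The mean went from 76.1 ± 4.98 to 167 ± 29.2 (SD, n = 3; log2 fold change 1.11, SE 0.16, limma adjusted p = 0.00676). *DKK3*, a divergent Dickkopf protein and the inhibitor with the most reads, had 2958, 2983 and 2972 in Control and 3956, 3001 and 3057 in the clones (log2 fold change 0.16, 95% interval from -0.09 to 0.40). Clone 1 was well above Control and the other clones were close to it. *DKK1*, which blocks LRP5 and LRP6, had 81.2, 92.0 and 108 in Control and 113, 66.5 and 18.0 in the clones. It was above Control in clone 1 and below it in clones 2 and 3, so the interval of its log2 fold change was wide, from -2.22 to 0.55.

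*DKK2*, a Dickkopf protein that also binds LRP5 and LRP6, stayed under the minimum but did not overlap between groups. It had 13, 12 and 13 reads in Control and 0, 3 and 3 in the clones (exact permutation p = 0.1). In the limma fit without the count minimum its log2 fold change was -2.64 (adjusted p = 0.0227), a value that depends on the pseudocount of 1. *SFRP1*, *SFRP4*, *SFRP5*, *DKK4* and *APCDD1* had from 0 to 16 reads in a library, and *SFRP2* and *WIF1* had none. The 4 *SFRP* genes did not exceed 3 reads in any library of either group.

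The intracellular feedback genes *AXIN2*, *NKD1* and *NKD2* rose, and the core scaffolds *AXIN1* and *APC* were not called. *AXIN2* (chr17:65528563-65561648, minus strand), a scaffold of the destruction complex that is commonly read as a target of β-catenin, had 129, 143 and 124 in Control and 250.2, 461 and 262 in the clones. Clone 2 was the highest, and each clone was above all Control libraries. The mean went from 132 ± 9.85 to 324 ± 119 (SD, n = 3; log2 fold change 1.24, SE 0.24, limma adjusted p = 0.0168). Its exons overlap an unnamed protein-coding gene model on the same strand, so part of its reads could be assigned to that model. *NKD1* (chr16:50548396-50649249, plus strand), which binds Dishevelled and dampens the signal, had 215, 217 and 206 in Control and 338, 486 and 503 in the clones. The groups were clear of each other, with clone 1 the lowest of the clones. The log2 fold change was 1.03 (SE 0.16, limma adjusted p = 0.00811).

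*NKD2* (chr5:1008802-1038943, plus strand), its paralog, had 66.3, 70.4 and 45.8 in Control and 107, 95.9 and 115 in the clones (log2 fold change 0.81, SE 0.20, limma adjusted p = 0.0429). The groups do not overlap, but Control replicate 3 was low. The fold limit was passed in every fit without 1 library, and the p limit was missed in 4 of them, without Control replicate 1 (log2 fold change 0.88), Control replicate 3 (0.62), clone 1 (0.80) or clone 3 (0.75). The neighbours of *NKD2* on chromosome 5 were shifted by -0.10, -0.39 and -0.13 in clones 1 to 3, and with the shift removed its log2 fold change was 1.02. *APC* had 2423, 2548 and 2585 in Control and 2305, 1366 and 2512 in the clones (log2 fold change -0.34, 95% interval from -0.83 to 0.15). Clone 2 alone was far below Control, and the neighbours of *APC* were shifted by -0.53 in this clone. *AXIN1* had a log2 fold change of -0.02 with an interval from -0.18 to 0.13.

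Of the 4 TCF/LEF factors, which bind DNA for β-catenin, *LEF1* and *TCF7L1* rose. *LEF1* (chr4:108047545-108168956, minus strand), usually an activator and itself a known target of the pathway, had 644, 573 and 574 in Control and 1289, 1395 and 1175 in the clones. The lowest clone was far above the highest Control library. The mean went from 597 ± 40.6 to 1286 ± 110.3 (SD, n = 3; log2 fold change 1.10, SE 0.09), and the limma adjusted p of 0.000777 was the smallest of the WNT genes. *TCF7L1* (chr2:85133392-85310387, plus strand), which mostly acts as a repressor in stem cells, had 275, 288 and 252 in Control and 437, 584 and 439 in the clones. Clone 2 was the highest, and the groups do not overlap. The log2 fold change was 0.83 (SE 0.14, limma adjusted p = 0.00999).

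*LEF1* overlaps the antisense RNA *LEF1-AS1*, and *NKD1* and *NOTUM* each overlap an antisense lncRNA. The libraries were prepared with a stranded mRNA kit. Whether the counting used the strand is not given in the sources used here, so reads of these pairs may not have been kept apart. The 250 bases before the start of *TCF7L1*, the other called factor, are shown for comparison with the ligand windows, on the plus strand at chr2:85133142-85133391 and again with GCGC in capitals.
TCF7L1: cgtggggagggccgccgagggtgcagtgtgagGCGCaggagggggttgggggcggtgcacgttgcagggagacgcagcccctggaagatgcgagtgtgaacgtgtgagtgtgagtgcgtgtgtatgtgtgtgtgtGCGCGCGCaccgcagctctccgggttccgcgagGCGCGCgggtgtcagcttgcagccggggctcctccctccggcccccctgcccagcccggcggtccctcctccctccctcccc
This window held 6 GCGC, and 72% of its bases were G or C. The windows of *NKD2*, *PORCN*, *FZD1* and *LEF1* held 5, 4, 2 and 1. The RefSeq start of *LEF1* lies 2655 bases inside the annotated gene, so its window is not that of the outermost start.

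*TCF7* had 299, 263 and 286 in Control and 338, 418 and 378 in the clones, with no overlap. Its log2 fold change was 0.41 (95% interval from 0.15 to 0.68, limma adjusted p = 0.0556), under the fold limit. *TCF7L2*, the TCF factor with the most reads, had 1293, 1327 and 1270.3 in Control and 926, 906 and 1361 in the clones (log2 fold change -0.31, 95% interval from -0.67 to 0.05). Clones 1 and 2 were below and clone 3 was above every Control library. Without clone 3 the log2 fold change was -0.50 and *TCF7L2* was called lower. Its neighbours were shifted by -0.35, -0.34 and 0.20 in clones 1 to 3. In Control *TCF7L2* stood at 192 normalized counts per kb and *LEF1* at 111, and in the clones at 158 and 240, so *LEF1* was above *TCF7L2* on this scale in the clones.

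The clones differed from each other more than the Control libraries did. Over the 35 tested WNT genes the median range of the 3 clones was 0.422 on the log2 scale, and that of the 3 Control libraries was 0.167, while over all tested genes these medians were 0.288 and 0.112. A clone range above 1 was found for *DKK1* (2.58), *WNT4* (2.33), *WNT7B* (2.09), *WNT16* (1.14) and *LGR4* (1.12), which is 14.3% of the tested WNT genes, against 7.99% of all tested genes. None of the 12 called genes was among them, which partly follows from the rule, because a wide range between clones raises the limma p. Of the called genes, 7 were highest in clone 2, 3 in clone 3 and 2 in clone 1. The same count was not made over all tested genes, so it is not known to be particular to the WNT genes.

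**Figure D4:**
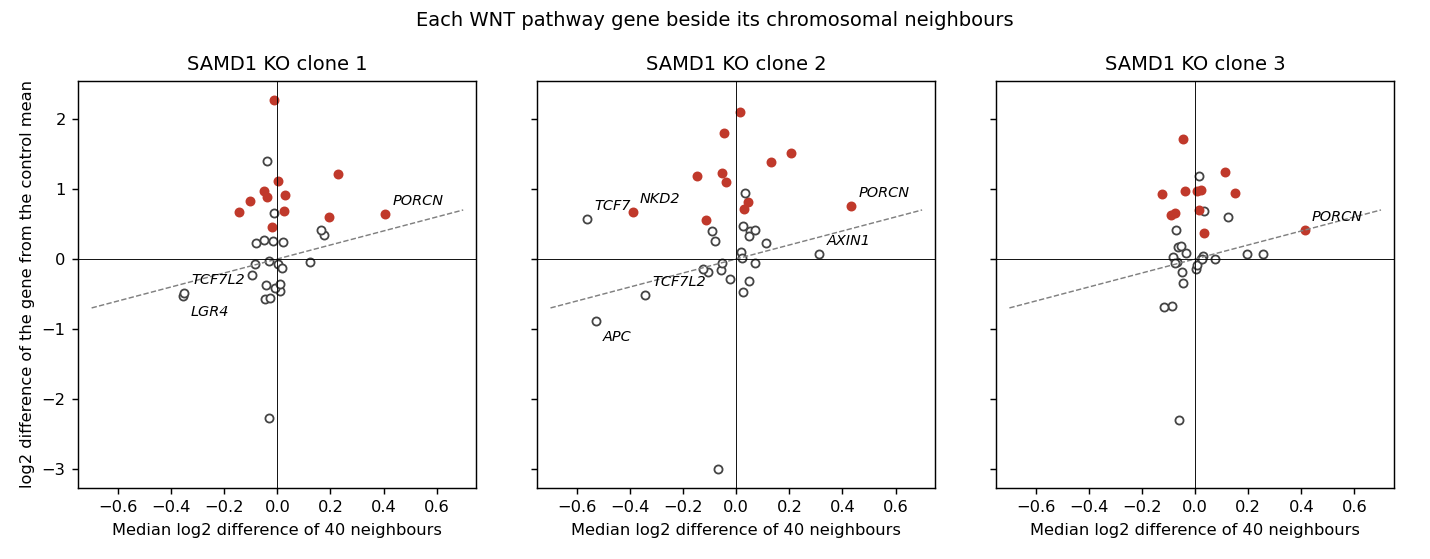
For each *SAMD1* KO clone (panels), the log2 difference of each tested WNT gene from the Control mean (vertical axis) against the median log2 difference of its 40 neighbouring genes in the same clone (horizontal axis), with filled red points for called genes, the dashed line of equality, and names where the regional value is beyond 0.3. *PORCN* has regional values of 0.40, 0.43 and 0.41 in the 3 clones, and *TCF7*, *APC* and *NKD2* stand farthest to the left in clone 2.

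The plot of clones against their regions shows which WNT genes lay in a shifted stretch of the genome. A regional value beyond 0.3 was found for 4.83%, 6.8% and 2.75% of the tested genes in clones 1, 2 and 3. Among the WNT genes these were *PORCN* in all clones, *LGR4* in clone 1, *TCF7L2* in clones 1 and 2, and *APC*, *TCF7*, *NKD2* and *AXIN1* in clone 2. *TCF7*, whose region was at -0.56 in clone 2, had a log2 fold change of 0.63 after the shift was removed, which passed the fold limit but not the p limit. After the same removal *FZD8* (0.77) was called higher and *WNT4* (-1.92) was called lower. With regional shifts removed, 10 of the 12 called genes kept their call, with log2 fold changes of 1.00 for *WNT7A*, 2.05 for *WNT9A*, 0.78 for *FZD3*, 0.66 for *FZD7*, 1.10 for *NOTUM*, 1.23 for *AXIN2*, 1.09 for *NKD1*, 1.12 for *LEF1* and 0.82 for *TCF7L1*, besides *NKD2*.

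A further list of 80 WNT pathway genes outside the group gives its surroundings. Of these, 60 were tested, 7 rose, 2 fell and 51 were not called, so that 11.7% rose. Over all tested genes 5.77% rose and 2.08% fell. By role, 2.94% of the tested intracellular components, 33.3% of the other extracellular components and 17.6% of the targets rose. Among 34 intracellular components *TNIK*, a kinase of the β-catenin/TCF complex, rose from 17.5 ± 2.97 to 50.7 ± 18.7 (SD, n = 3), and *BCL9L*, a co-activator of β-catenin, fell from 10575 ± 1007 to 6099.9 ± 775. The limma log2 fold changes were 1.43 (adjusted p = 0.0305) and -0.80 (adjusted p = 0.00429). Among other extracellular and surface components 3 of 9 tested genes rose. They were *TSPAN12*, a co-receptor of FZD4 (0.82, limma adjusted p = 0.00308), *ADGRA2*, a co-receptor for WNT7A and WNT7B (0.79, adjusted p = 0.0317), and the glypican *GPC4* (0.77, adjusted p = 0.0317). The region of *GPC4* was at 0.94 in clone 1, and without regional shifts its log2 fold change was 0.47. *RECK*, the partner of ADGRA2, was not called (-0.19).

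Of 29 genes known as targets of the pathway in other tissues, 17 were tested, 3 rose and 1 fell. *EPHB2*, a guidance receptor of intestinal crypts, went from 953 ± 23.5 to 1699.9 ± 227 (SD, n = 3; log2 fold change 0.83, limma adjusted p = 0.00312), and *JAG1*, a Notch ligand, had a log2 fold change of 1.24 (adjusted p = 0.0114). The homeobox genes *MSX2* and *MSX1* moved in opposite directions, at 0.78 (adjusted p = 0.0433) and -0.72 (adjusted p = 0.0113). The remaining 13 tested targets were not called, and *CCND1* had 0.24. Without Control replicate 3, 3 of the 80 genes rose instead of 7. The 3 role groups of this list had medians of -0.03 for intracellular components, 0.47 for extracellular components and 0.24 for targets.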

How the data were processed

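Libraries of PaTu8988t RNA came from 3 Control replicates and from 3 independent *SAMD1* KO clones. The authors aligned the reads to the GENCODE transcriptome with RNA-STAR, and the submitters' processing notes name hg38, featureCounts and DESeq2. The deposited signal is a normalized count per gene and library, a read count divided by 1 size factor (0.873 to 1.16). In each library 100% of the values divided by the step of that library came out whole (within 0.01), so whole reads were recovered, and on these edgeR 4.0.16 called 779 genes higher and 247 lower. The deposited table of the authors' own comparison, with fold changes and p-values, was not used.

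Expression was compared with limma 3.58.1 (eBayes with trend, R 4.3.3) on log2 values with a pseudocount of 1, for 12773 genes that averaged at least 10 normalized counts, so fold changes of low genes are understated. Adjustment of p-values followed Benjamini and Hochberg across every gene tested, and tests were two-sided. With 3 libraries a group, the exact permutation test has a smallest p of 0.1. Labels do not say whether Control replicates were separate cultures, so p-values measure the spread between these samples. The number of libraries limits precision. For genes with few reads, such as *WNT4* with 5, 3 and 19 reads in the clones, counting error does so too.

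The members and lists were chosen with earlier results of these data known. Values in every library are given for called genes, the gene with the most counts in each role group, and genes under the count minimum whose groups do not overlap and that reach 3 reads. A gene outside this rule is said to be chosen after its values were seen. Positions and exons are from GENCODE 44 (GRCh38) and promoter windows from RefSeq (GRCh38.p14). Regional shifts are medians of 40 neighbouring genes, 20 on each side. Near a chromosome end the 40 included more genes from the inner side, so the window was not centred on the gene. The 16 alternatives were pseudocounts of 0.1 and 10, no count minimum or 50, scaling by the 75th percentile, a replicate block, each library left out, edgeR, DESeq2 1.42.0, adjusted p below 0.05 and regional shifts removed. The fits were tested on simulated counts with the same spread in both groups. That check does not cover the wider spread between clones. Tables and plots were made in Python 3.11.15 (pandas 2.3.3, numpy 2.4.6, matplotlib 3.10.9).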

Additional observations from a re-analysis of the deposited data

How the results depend on the processing

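Of the 12 WNT genes that rose, 9 were called under all 16 alternatives and 10 in every fit without 1 library. *PORCN* lost its call only with regional shifts removed, *FZD1* there and in fits without 1 library, and *NKD2* in fits without 1 library and with the replicate block. Over the fits without 1 library, from 10 to 13 WNT genes rose and from 0 to 2 fell, and the adjusted p of *WNT7A*, *AXIN2*, *FZD7*, *TCF7L1*, *PORCN*, *FZD1* and *NKD2* exceeded 0.05 in at least 1 such fit, the highest being 0.0743, 0.0827, 0.0596, 0.0592, 0.0828, 0.124 and 0.136. The count of WNT genes called lower, 0 in limma, was 1 with a pseudocount of 10 or with regional shifts removed (*WNT4*), and 2 without a count minimum (*WNT4* and *DKK2*) or without *SAMD1* KO replicate 3 (*WNT4* and *TCF7L2*). Without a count minimum *RSPO2* was called higher. edgeR and DESeq2 each called the 12 genes and *FZD8*. Of the other WNT pathway genes 7 rose, from 3 (without Control replicate 3) to 9 (without *SAMD1* KO replicate 3) when 1 library was left out. The causes were not tested.

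The replicate numbers gave no clear pairing of the samples, and a weak pairing could not be told from none. Deviations of same-numbered samples correlated at 0.0391, 0.134 and 0.0318 across genes, and those of other pairs at -0.0745 to 0.036. Control replicates 1 and 2 correlated best with their own number, and Control replicate 3 with clone 1 (0.036). With the replicate number as a block, 12 WNT genes were called higher and 1 lower, with *FZD8* and *WNT4* gained and *NKD2* not called. *SAMD1* was lower and past the threshold under all alternatives. With 3 clones, a gene that differs between clones has a wide interval, and a gene without reads may still be present below 3 reads a library.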
